A study of Saccharomyces cerevisiae with 6 samples.

Results

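The genes described here are 10 genes with which budding yeast (Saccharomyces cerevisiae) takes up phosphate, releases it from organic phosphate and stores it as polyphosphate. They were chosen by name: the phosphatases PHO5 and PHO8, the transporters PHO84, PHO89 and GIT1, the regulator PHO81 and the polyphosphate complex genes VTC1 to VTC4. On the arrays used, 11 of 9335 probe sets carry 1 of these symbols, VTC4 having a pair, and the 10 genes stand among 5656 with a probe set of their own symbol. Transcript levels were measured in 6 samples of total RNA, each on 1 array. The arrays K91A 1 to K91A 3 are titled as a strain with the K91A allele of histone H4, in which lysine 91 is replaced by alanine. WT 1 to WT 3 come from a strain titled as wild type for histone H4. Per the labels both strains were harvested in mid-log phase from YPD, a rich medium with glucose. The labels name no strain background or other allele, and do not say that replicates were grown separately, so each p-value reflects only how far these samples spread. The strains also differed in the transcripts of ADE2, an adenine synthesis gene (log2 fold change -5.73), and TRP1, a tryptophan synthesis gene (5.28), both common selectable markers. What differs between the strains at these genes and the histone allele cannot be told apart in the comparisons below.

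Phosphate homeostasis in yeast runs through a kinase and a transcription factor. When phosphate is ample, the cyclin and kinase pair Pho80 and Pho85 phosphorylates the activator Pho4 and keeps it out of the nucleus. When phosphate is scarce, Pho81 inhibits that kinase, and Pho4, together with Pho2, switches on genes for acid phosphatases, high-affinity transporters and polyphosphate synthesis. Polyphosphate is a chain of phosphate units stored mainly in the vacuole, the yeast lysosome, and is made there by the VTC complex. The PHO5 promoter, whose nucleosomes are removed on induction, is a textbook model for how chromatin affects transcription. The comparison therefore asks whether the transcripts of this system differed between cells with and without the change in the histone H4 core.

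Some properties of the arrays bear on every value. K91A 3 carries the K91A title but a description that calls it WT, and it was kept by its title. The ADE2 level of K91A 3 was 9.44, against 8.86 and 8.91 on K91A 1 and 2 and 14.69 to 14.85 on the WT arrays. TRP1 read 13.43 on K91A 3, against 13.21 and 14.24 on K91A 1 and 2 and 8.24 to 8.43 on the WT arrays. At both genes K91A 3 thus lay with the K91A strain. With K91A 3 counted as WT, limma, a linear model fitted across all probe sets, called 0 of 6931 probe sets, although 1056 had an unadjusted p under 0.05. Median intensity ranged from 745 on K91A 3 to 3116.5 on WT 2. K91A 3 also had 51 empty values, against 33 on every other array. Actin probes at the 5' end of the transcript gave a fraction of the signal of those at the 3' end, which reflects RNA and labelling quality. This ratio was 0.843 to 0.877 on the K91A arrays, 0.110 and 0.114 on WT 1 and WT 2, and 0.365 on WT 3 (two-sided exact permutation p = 0.1, the lowest value possible with 3 arrays a side). All 4 markers of alpha cells, 1 of the 2 haploid mating types, lay between the 84.0 and 99.0 percentile of every array. Their intensities as deposited, which also carry the brightness of each array, summed to between 32521 and 66475 for K91A and between 78019 and 111046 for WT. After quantile normalization the sums overlapped, at 64555 to 70093 for K91A and 60137 to 72390 for WT. By limma the pheromone gene MF(ALPHA)2 was higher in K91A (1.19, adjusted p = 0.0174), while STE3 (-0.58), SAG1 (-0.30) and MF(ALPHA)1 (-0.12) did not pass. Of the 6 a cell markers, the pheromone gene MFA1 was higher in K91A by both of its probe sets (1.40 and 2.20) and MFA2 by 0.99. STE6 did not pass limma's test (0.78, adjusted p = 0.0887). STE2 (1.05), BAR1 (0.79) and ASG7, which went the other way (-0.28), were too dim to be tested. The 7 a cell probe sets summed to between 7531 and 21799 on the K91A arrays and between 7665 and 11186 on the WT arrays as deposited, and to 18498 to 19455 and 7585 to 8237 after normalization. None of either list was at 0. The part of these measures in the differences below was not tested. In samples of whole cultures, less RNA per cell and fewer cells that express a gene cannot be told apart.

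PHO81, VTC1, VTC2, VTC3 and, by 1 of its probe sets, VTC4 were lower in the K91A samples. The main phosphate transporter gene PHO84 and the phosphatase genes PHO5 and PHO8 did not pass the test. PHO5 and PHO8 did have all K91A arrays below all WT arrays (log2 fold changes -0.46 and -0.55). Whether the genes differed from each other was not tested. Differences (log2 differences, also called log2 fold changes) are K91A minus WT, in quantile-normalized log2(intensity + 16) levels, and a call is a limma p of under 0.05 after Benjamini-Hochberg adjustment over 6931 probe sets. The added 16 makes changes of dim probe sets look smaller than they are. All 11 member probe sets were bright enough to be tested. Of these, 5 were called lower, where 14.8% of all probe sets were, and 1 was called higher, where 15.4% were, so 6 were called where 30.2% of all were. The 5 lower calls belong to PHO81, VTC1, VTC2, VTC3 and 1 of the VTC4 probe sets, and the higher call to GIT1. The median over the 11 was -0.55, against -0.07 over all probe sets tested. In 7 of the 11 the K91A arrays lay wholly below the WT arrays (27.4% of all probe sets), in 1 wholly above (23.6%) and in 3 they overlapped. Over all probe sets 51.0% had groups that did not overlap. With K91A 3 left out, there were again 5 lower calls and 1 higher, where 14.5% and 12.5% of all probe sets were. Without WT 1, and likewise without WT 2, there were 2 calls, both lower. Of all probe sets, 5.6% and 5.2% were then called lower, and 7.7% and 6.9% higher. On the values as deposited, without normalization, the median of all probe sets was -0.82, with 32 probe sets called higher and 671 lower in place of 1068 and 1023. The directions given here are thus relative to the bulk of transcripts. The same 5 member probe sets were called lower on that scale, where 9.7% of all probe sets were called lower and 0.46% higher. The shift of the whole scale favours lower calls, so these 5 are not separate support.

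**Figure D1:**
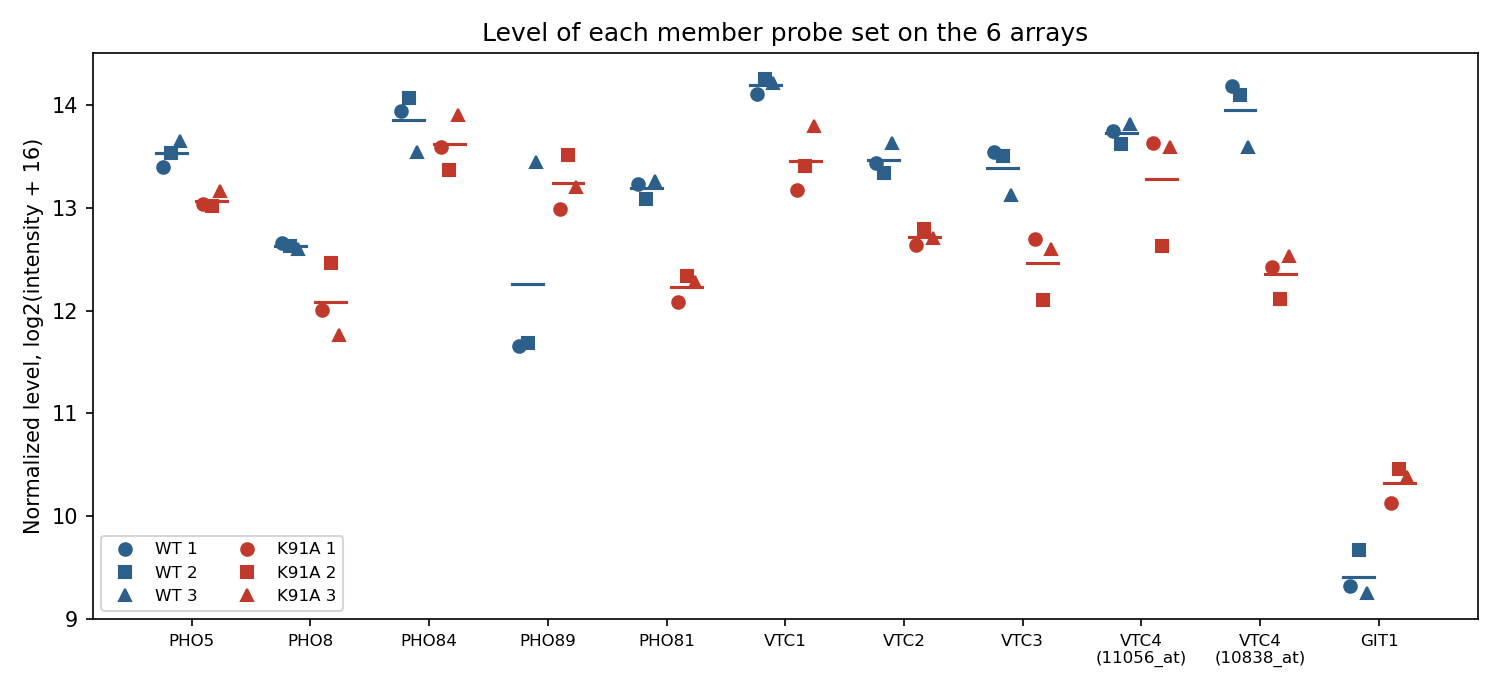
Normalized log2 level of each of the 11 probe sets (y axis, log2 of intensity plus 16) on the 3 WT arrays (blue) and the 3 K91A arrays (red), with symbols for the replicate number and a line at each group mean. PHO81, VTC1, VTC2, VTC3, 1 VTC4 probe set and the uncalled PHO5 and PHO8 show K91A arrays wholly below WT arrays, GIT1 shows them above, and WT 3 stands apart for PHO89.

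The VTC complex polymerizes phosphate from ATP and moves the chain into the vacuole. Its catalytic subunit is Vtc4, the polyphosphate polymerase. The VTC4 probe set 10838_at had log2 levels of 12.43, 12.12 and 12.53 on K91A 1, 2 and 3, and of 14.19, 14.10 and 13.59 on WT 1, 2 and 3. Every K91A array was thus more than 1 log2 unit below every WT array. The means were 12.36 ± 0.22 and 13.96 ± 0.32 (SD, n = 3 each), a log2 difference of -1.60 (standard error 0.22, 95% interval -2.13 to -1.07, limma adjusted p = 0.00394), or 3.03-fold lower. The other VTC4 probe set, 11056_at, was not called. It read 13.63, 12.63 and 13.59 on the K91A arrays and 13.75, 13.62 and 13.82 on the WT arrays. K91A 2 was low, whereas K91A 1 and K91A 3 lay close to the WT arrays or among them. Its log2 fold change was -0.45 (standard error 0.29, 95% interval -1.12 to 0.23, adjusted p = 0.272). The intervals of the probe sets meet only between -1.12 and -1.07, so the size of the VTC4 difference depends on the probe set. The sources used here do not give the place of either in the transcript.

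Vtc2 and Vtc3 are alternative subunits that carry an SPX domain, which senses phosphate status through inositol pyrophosphates, and Vtc1 is a small membrane subunit. VTC2 had levels of 12.64, 12.79 and 12.71 on the K91A arrays and 13.44, 13.34 and 13.63 on the WT arrays. The groups were tight and separate, with a log2 difference of -0.76 (standard error 0.16, limma adjusted p = 0.0165), or 1.69-fold lower. VTC3 read 12.70, 12.10 and 12.60 on the K91A arrays and 13.55, 13.51 and 13.12 on the WT arrays. Its groups did not overlap either, though K91A 2 and WT 3 were the low arrays of their groups, and its log2 fold change was -0.92 (standard error 0.23, adjusted p = 0.0244). VTC1 read 13.17, 13.41 and 13.79 on the K91A arrays and 14.11, 14.26 and 14.22 on the WT arrays. K91A 3 came nearest to WT, and the log2 fold change was -0.74 (standard error 0.19, adjusted p = 0.0272). The 95% intervals of VTC1 (-1.19 to -0.29), VTC2 (-1.15 to -0.37) and VTC3 (-1.47 to -0.38) covered much the same range, and differences between the subunits were not tested.

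Leaving out single arrays separated these genes by how firmly they were called. The call of VTC4 probe set 10838_at held without any 1 array, with values from -1.77 to -1.49 and adjusted p of at most 0.0264. The VTC2 call was lost without WT 1 (adjusted p = 0.0664) or WT 2 (0.0617), and so was the VTC3 call (0.0958 and 0.0992). The VTC1 call was lost without any 1 WT array (adjusted p = 0.0788, 0.107 and 0.0678 for WT 1, 2 and 3) and without K91A 1 (0.0689). Without WT 1 or WT 2 there were also fewer calls over all probe sets (925 and 841, in place of 2091). In these fits the values were -0.77 and -0.81 for VTC2, -0.85 and -0.86 for VTC3, and -0.78 and -0.70 for VTC1. VTC1 has the shortest coding region of the 10 genes, 390 nt, and level fell with coding length more on the WT arrays (Spearman's rho across 5013 genes -0.213 to -0.198) than on the K91A arrays (-0.091 to -0.0473), where genes are not independent replicates. With the dependence on coding length taken out of each array, the VTC1 value was -0.44 and not called (adjusted p = 0.101), whereas VTC2 (-0.95, adjusted p = 0.00572) and VTC3 (-1.11, adjusted p = 0.00744), of 2487 and 2508 nt, were.

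**Figure D2:**
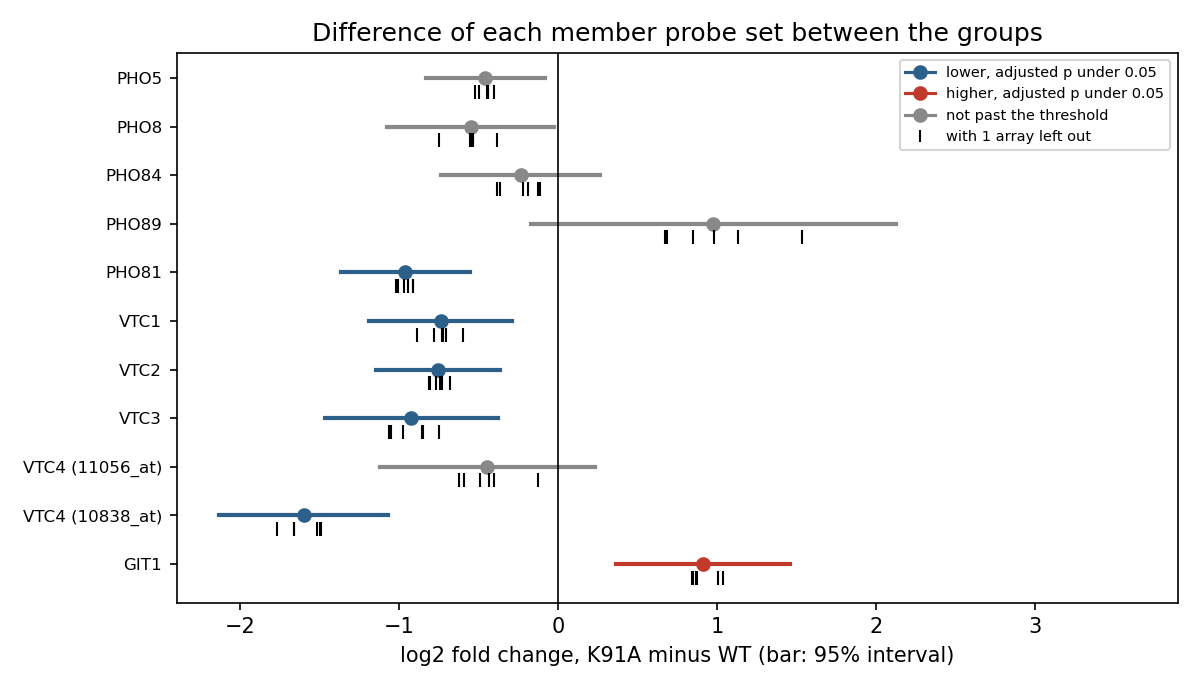
The log2 fold change, K91A minus WT, of each probe set (x axis, point) with its 95% interval from limma (bar), coloured by call, with black ticks for the value when each of the 6 arrays was left out. The 5 probe sets called lower lie between -1.60 and -0.74, GIT1 lies at 0.91, and the ticks of PHO89 spread widest, up to 1.54.

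PHO81 encodes the inhibitor of the Pho80 and Pho85 kinase and is itself a target of Pho4. Its levels were 12.09, 12.34 and 12.28 on the K91A arrays and 13.23, 13.09 and 13.26 on the WT arrays. All K91A arrays lay below all WT arrays, and both groups were tight. The log2 fold change was -0.96 (standard error 0.17, 95% interval -1.37 to -0.56, limma adjusted p = 0.00862), or 1.95-fold lower. The call held without any 1 array (-1.02 to -0.91, adjusted p of at most 0.0464). At 3537 nt PHO81 has the longest coding region of the 10 genes, and with the length trend removed its value was -1.22 (adjusted p = 0.00323).

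Most other genes of the phosphate signal did not pass the test. PHO85 (0.10, adjusted p = 0.712) and PHO80 (0.61, adjusted p = 0.131) did not pass limma's test, nor did PHO2 (0.0089, adjusted p = 0.98). PHO4 was among the dimmest 25% of probe sets and was not tested. It read 9.70, 10.02 and 10.20 on the K91A arrays and 8.66, 8.44 and 9.56 on the WT arrays. Of 13 signalling genes listed, 12 were tested, of which 1 rose and 1 fell, against 15.4% and 14.8% of all probe sets. KCS1, a kinase that makes inositol pyrophosphates, rose by 0.77 (standard error 0.18, adjusted p = 0.0194), but it was not called without WT 1 (adjusted p = 0.0663) or WT 2 (0.0744), with the length trend removed (0.53, adjusted p = 0.0503) or on the values as deposited (0.057, adjusted p = 0.966). On the deposited scale the median of all probe sets was -0.82. PSE1, the import receptor that carries Pho4 into the nucleus, had a log2 difference of -0.70 (standard error 0.20, adjusted p = 0.0403). Its call was lost without K91A 1, WT 1, WT 2 or WT 3 (adjusted p 0.0639 to 0.137). VIP1, another kinase of inositol pyrophosphates, stood at 0.07 for its brightest probe set (adjusted p = 0.814), and a dimmer one, which passed the filter only through the K91A arrays, was called higher (1.81, adjusted p = 0.0123).

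The secreted acid phosphatase gene PHO5, the best-known target of Pho4, did not pass the test. Its levels were 13.04, 13.02 and 13.16 on the K91A arrays and 13.40, 13.54 and 13.66 on the WT arrays. The groups did not overlap, but the log2 difference of -0.46 (standard error 0.16, 95% interval -0.83 to -0.08) missed the threshold of limma (adjusted p = 0.0668). It was called with the length trend removed (-0.50, adjusted p = 0.0391) and with array weights (-0.40, adjusted p = 0.0432). PHO8, the vacuolar alkaline phosphatase, read 12.01, 12.46 and 11.77 on the K91A arrays and 12.66, 12.63 and 12.60 on the WT arrays. The WT arrays were nearly equal, whereas the K91A arrays spread out below them, and the log2 fold change was -0.55 (standard error 0.22, adjusted p = 0.102). Without K91A 2 it was called lower (-0.75, adjusted p = 0.0207), as it was with median centring (-0.75, adjusted p = 0.0397). PHO8 was also called lower with array weights (-0.66, adjusted p = 0.0125) and with the length trend removed (-0.65, adjusted p = 0.0491). Array weights gave 3046 calls over all probe sets, in place of 2091.

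Among the other phosphatases, the pair PHO11 and PHO12 showed the clearest difference. They encode near-identical acid phosphatases related to Pho5 and share 1 probe set, so their signals cannot be separated. It read 11.68, 11.41 and 11.74 on the K91A arrays and 13.20, 13.01 and 13.56 on the WT arrays. Each K91A array was more than 1 log2 unit below each WT array, with a log2 difference of -1.65 (standard error 0.22, limma adjusted p = 0.00348), or 3.13-fold lower. The call held without any 1 array (adjusted p of at most 0.0201). PHO3, the acid phosphatase gene next to PHO5, had a log2 difference of -0.84 (adjusted p = 0.163). DIA3, a gene related to the acid phosphatases, rose by 1.58 (standard error 0.22, adjusted p = 0.00387), and its call held without any 1 array (adjusted p of at most 0.0257). On the values as deposited, where the median of all probe sets was -0.82, it was 0.99 and not called (adjusted p = 0.351). PHO13, a phosphatase of small metabolites, was called lower (-0.72, adjusted p = 0.0381). Its call was lost without K91A 2, K91A 3, WT 1, WT 2 or WT 3 (adjusted p 0.0575 to 0.116).

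Of the phosphate transporters, neither high-affinity gene passed the test. PHO84, the main proton-coupled phosphate transporter, read 13.59, 13.37 and 13.90 on the K91A arrays and 13.95, 14.07 and 13.55 on the WT arrays. The groups overlapped, with WT 3 below 2 of the K91A arrays. The log2 fold change was -0.24 (standard error 0.21, 95% interval -0.74 to 0.27, limma adjusted p = 0.425). It was not called in any of the 18 other settings run, and its interval reaches down to about the VTC1 value. PHO89, a sodium-coupled phosphate transporter, read 12.99, 13.52 and 13.20 on the K91A arrays and 11.65, 11.69 and 13.44 on WT 1, 2 and 3. WT 3 lay among the K91A arrays, well above the other WT arrays. The log2 difference of 0.98 (standard error 0.49, 95% interval -0.17 to 2.13) did not pass (adjusted p = 0.166). Without WT 3 it was 1.54 and called higher (adjusted p = 0.0101), and with array weights it was 1.33 and called higher (adjusted p = 0.0208). WT 3 was also the WT array with the highest actin 5' to 3' ratio (0.365), and the part of that in the PHO89 value was not tested.

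GIT1, a permease that takes up glycerophosphoinositol, a source of both phosphate and inositol, was the 1 member called higher. It read 10.13, 10.46 and 10.38 on the K91A arrays and 9.32, 9.67 and 9.25 on the WT arrays. All K91A arrays lay above all WT arrays, with a log2 difference of 0.91 (standard error 0.23, 95% interval 0.37 to 1.46, limma adjusted p = 0.0256), or 1.88-fold. The probe set was dim on the WT arrays, at the 20.6 to 26.6 percentile. Its WT mean of 9.41 was below the lowest mean level of the probe sets tested (9.66), so it passed the filter only through the K91A arrays, where it is high. With no filter it was called too (adjusted p = 0.0247). Without detection calls in the table, it is unknown whether it lay above background there. The call was lost without WT 1 (adjusted p = 0.101), WT 2 (0.0634) or WT 3 (0.0630), and on the values as deposited the difference was 0.40 (adjusted p = 0.742). The median of all probe sets on the deposited scale was -0.82.

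The remaining phosphate transport genes included 4 increases and no decrease among 6 tested, where 15.4% of all probe sets were called higher and 14.8% lower. PHO87, a low-affinity transporter of the plasma membrane, had a log2 difference of 1.29 (standard error 0.27, limma adjusted p = 0.014). MIR1, the main phosphate carrier of the mitochondrial inner membrane, read 14.42, 14.25 and 14.56 on the K91A arrays and 13.49, 13.54 and 13.41 on the WT arrays. It rose by 0.93 (standard error 0.15, adjusted p = 0.00555) and remained called without any 1 array. PIC2, a second mitochondrial carrier, rose by 1.07 (adjusted p = 0.0467) and SYG1, a membrane protein with an SPX domain, by 0.92 (adjusted p = 0.0266). PHO90 (-0.60, adjusted p = 0.118), also a low-affinity transporter, and the vacuolar transporter PHO91 (-0.48, adjusted p = 0.13) did not pass. With the length trend removed, however, PHO90 (-0.80, adjusted p = 0.041) and PHO91 (-0.68, adjusted p = 0.0299) were called lower. The 4 increases were called in that fit too. The PHO87 call was lost without WT 1 (adjusted p = 0.0584) or WT 2 (0.0628). The PIC2 call was lost without K91A 1, K91A 2, K91A 3, WT 1 or WT 2 (adjusted p 0.0626 to 0.0982), and the SYG1 call without K91A 1, K91A 3, WT 1, WT 2 or WT 3 (0.0609 to 0.0752). On the values as deposited none of the 4 was called, and their values lay between 0.02 (MIR1) and 0.67 (PHO87). On that scale the median of all probe sets was -0.82, and 32 of 6931 were called higher. With median centring MIR1 (0.67, adjusted p = 0.117), PIC2 (0.87, adjusted p = 0.101) and SYG1 (0.80, adjusted p = 0.0779) were not called.

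**Figure D3:**
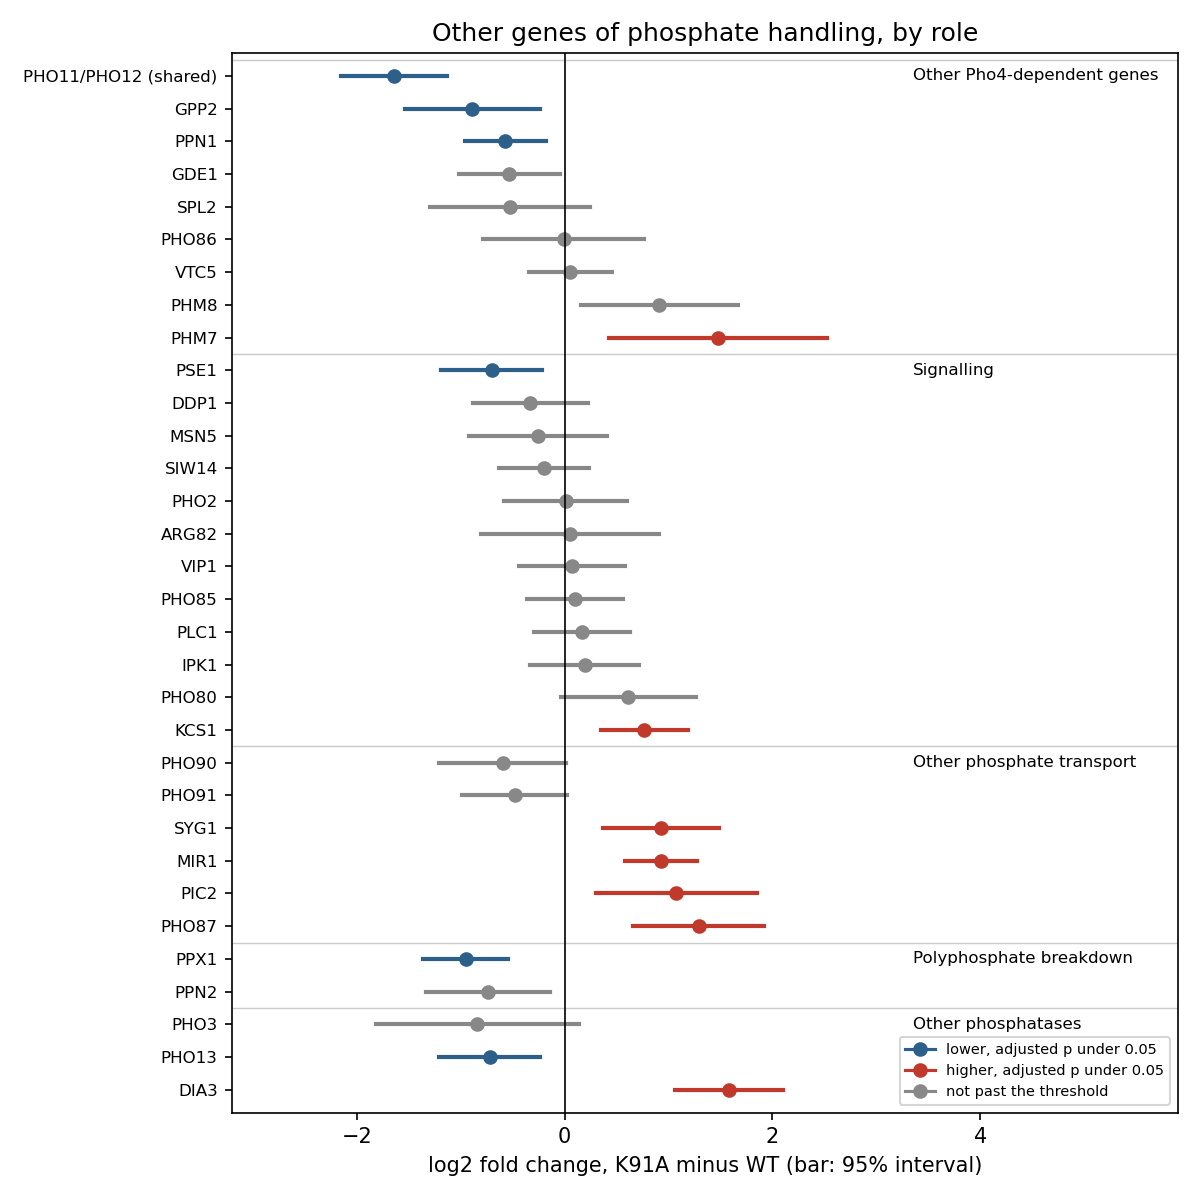
The log2 fold change, K91A minus WT (x axis, point), with its 95% interval (bar) for the other tested genes of phosphate handling, grouped by role and coloured by call, each gene shown once under its first role. The shared PHO11 and PHO12 probe set lies lowest at -1.65, and PHO87, PIC2, MIR1 and SYG1 lie between 0.92 and 1.29.

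Genes of polyphosphate breakdown were placed beside those of its synthesis. All 4 listed were tested, of which 2 fell and 0 rose, against 14.8% and 15.4% of all probe sets. PPX1, the cytosolic exopolyphosphatase, read 10.85, 10.93 and 11.13 on the K91A arrays and 11.87, 11.92 and 11.97 on the WT arrays. The groups were well apart, the log2 fold change was -0.95 (standard error 0.17, limma adjusted p = 0.00926), and the call held without any 1 array (adjusted p of at most 0.0496). PPN1, a vacuolar polyphosphatase and a Pho4 target, had -0.57 (standard error 0.17, adjusted p = 0.0397). Its call was lost without K91A 3, WT 1, WT 2 or WT 3 (adjusted p 0.0868 to 0.117). PPN2, another vacuolar polyphosphatase (-0.74, adjusted p = 0.0642), and DDP1, which also cleaves inositol pyrophosphates (-0.33, adjusted p = 0.316), did not pass.

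The other genes listed as dependent on Pho4 did not move one way. Of 12 listed, 8 were tested by a probe set of their own, of which 1 rose and 2 fell, against 15.4% and 14.8% of all probe sets. PHO11 and PHO12 are also on this list but not in that count. Their shared probe set was called lower (-1.65, limma adjusted p = 0.00348). Among the genes counted, GPP2, a glycerol phosphatase gene, was called lower besides PPN1 (-0.89, adjusted p = 0.0485). The GPP2 call was lost without K91A 2, K91A 3, WT 1, WT 2 or WT 3 (adjusted p 0.0849 to 0.133). PHM7, a membrane protein gene, was called higher at 1.48 (adjusted p = 0.0439), but not without K91A 1, K91A 2, K91A 3, WT 1 or WT 2 (adjusted p 0.0558 to 0.0959). WT 3 was its lowest array at 9.55, against 11.18 and 11.12 on WT 1 and WT 2. SPL2, which restrains low-affinity uptake (-0.53, adjusted p = 0.254), and VTC5, an accessory VTC subunit (0.06 by its brightest probe set, adjusted p = 0.82), did not pass. Dimmer VTC5 probe sets that were tested went opposite ways, at 0.58 (adjusted p = 0.0656) and -0.60 (adjusted p = 0.131). PHM6, a gene of the list too dim to be tested, read 7.98, 8.10 and 8.33 on the K91A arrays and 9.37, 9.43 and 9.24 on the WT arrays. Over the whole list of 37 other phosphate genes, 31 were tested by a probe set of their own, of which 7 rose and 5 fell, with a median of 0.0089. None of these 12 genes was called on the values as deposited, where 0.46% of all probe sets were called higher and 9.7% lower. The number of calls, 12, was 3 without WT 1, 3 without WT 2, 6 without K91A 3 and 7 without WT 3. The count over all probe sets, 2091, was 925, 841, 1867 and 1537 in these same fits.

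**Figure D4:**
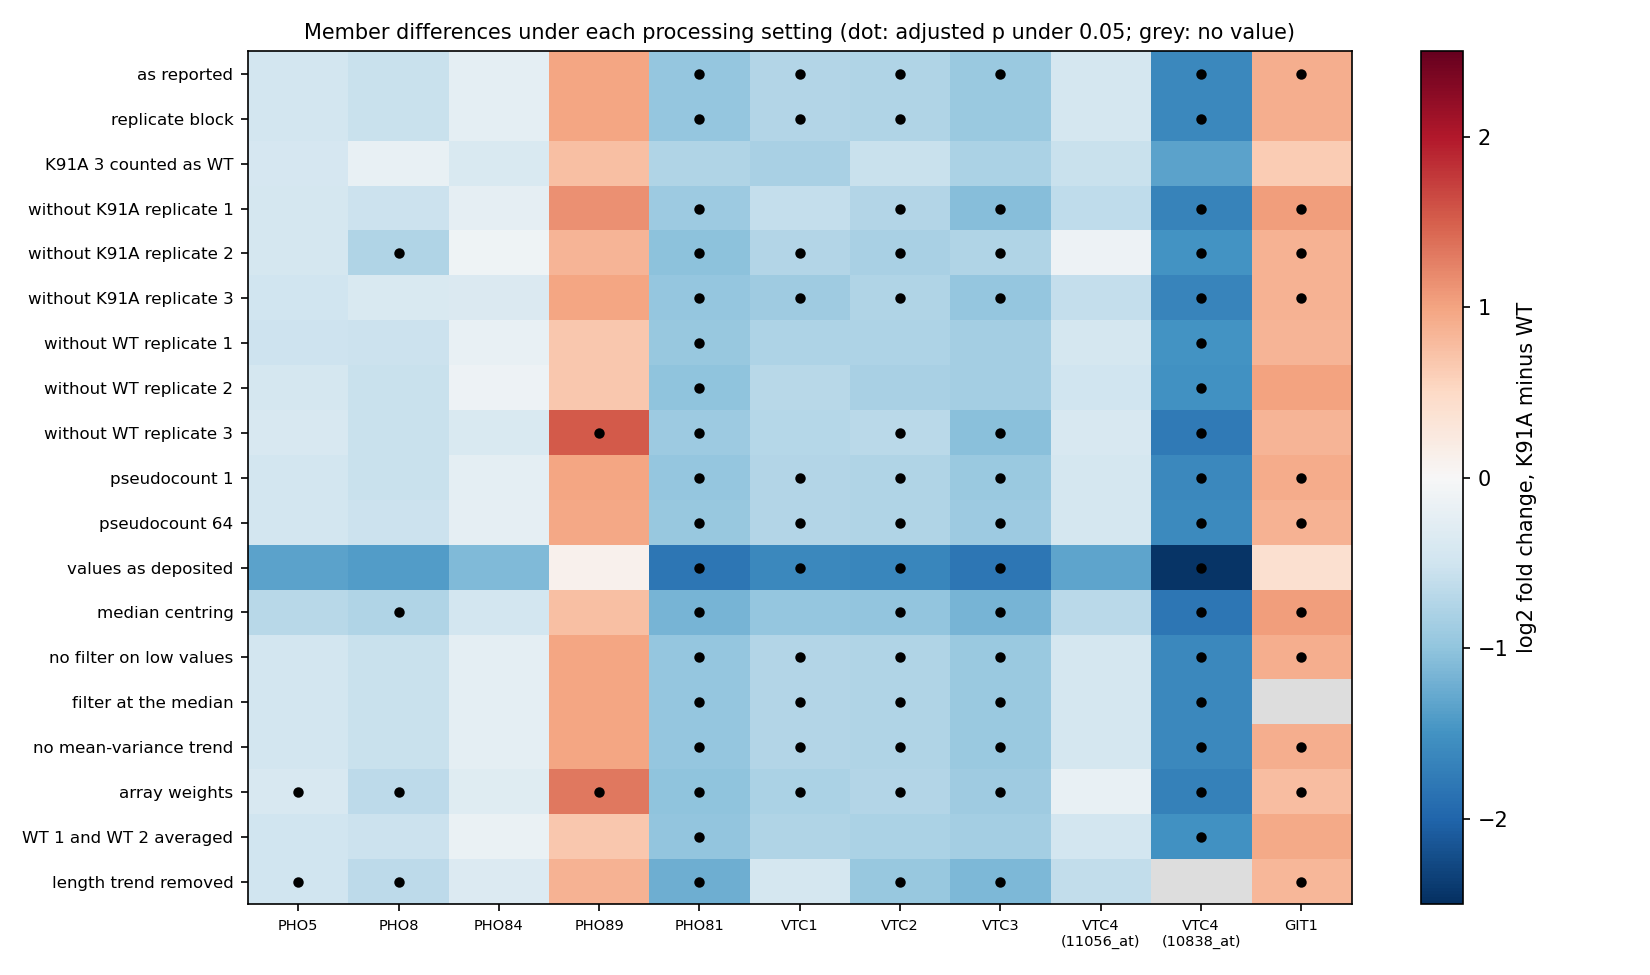
The log2 fold change, K91A minus WT (colour), of each member probe set (columns) under the reported processing and 18 other settings (rows), with a dot where the adjusted p was under 0.05 and grey where no value was obtained. PHO81 and VTC4 probe set 10838_at have dots in every row with a value except the one that counts K91A 3 as WT, and no member changes direction.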

How the data were processed

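The deposited values are linear intensities, 1 for each probe set on each array. The software, background correction and scaling behind these intensities are not stated in the sources used here. Samples were grouped by title. Probe sets took their gene symbols from the platform annotation, updated through Entrez identifiers in a RefSeq gene table (assembly R64). All 6504 probe sets with 1 symbol matched. The 10 members and the gene lists were chosen with earlier results of these data known.

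The 60 controls were set aside, and the other values were converted to log2(intensity + 16) and quantile normalized. A further 33 probe sets lacked enough values (under 2 in a group) and 2311, the dimmest 25% of the rest, were dropped, so 6931 were tested. The groups were compared in limma 3.58.1 (R 4.3.3), with lmFit and a trended eBayes, and Benjamini-Hochberg adjustment ran over the whole set of 6931. Every adjusted p in the text comes from this test or its named alternatives. For genes with more than 1 probe set the brightest was used, and members are given by every probe set. Actin, SRB4 and SPT15 ratios were compared by an exact permutation test. The number of arrays limits the precision. The procedure was also run on simulated data with independent noise at each probe set. These data held no array-wide differences, so that run cannot speak to the ones described above.

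Beside the members, the genes named are those of a list of 37 other phosphate genes that passed the threshold, fixed regulators and transporters, 2 marker lists of haploid cell types, and the genes most like PHO84 and VTC4. Others, such as PHO3, PPN2, SPL2 and PHM6, were named after their values were seen. Promoter and protein sequences were not analysed here.

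Alternatives tried were a replicate block, K91A 3 counted as WT, each array left out, pseudocounts of 1 and 64, no normalization, centring on medians, no filter, a filter at the median level, eBayes without the trend, weighted arrays, WT 1 averaged with WT 2, and levels freed of their dependence on coding length.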

Additional observations from a re-analysis of the deposited data

How the results depend on the processing

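Over 18 alternatives the 11 member probe sets gave 196 values, none of which changed direction. Of these, 162 kept the side of the threshold, 26 were no longer called and 8 became called. The count of member calls, 6, was 0 with K91A 3 counted as WT and 2 with WT 1 and WT 2 averaged, and 2 to 7 with 1 array left out. The count over all probe sets, 2091, was 0 with K91A 3 counted as WT, 703 on the values as deposited, 1372 of 4621 with the filter at the median, 877 with WT 1 and WT 2 averaged, and 841 to 2300 with 1 array left out. The 12 calls among other phosphate genes became 7 with the replicate block, 0 with K91A 3 counted as WT, 1 on the values as deposited (PHO3, not among the 12), 3 with WT 1 and WT 2 averaged, and 3 to 9 with 1 array left out. Median centring moved the median of all probe sets from -0.07 to -0.18. The cause of these changes was not tested, except that the filter tested fewer probe sets. The difference in actin ratio, 0.665, ranged from 0.622 to 0.750 with 1 array left out.

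The labels do not say that replicate numbers mark a shared culture or day, and deviations from the group means of same-numbered arrays correlated at 0.17, -0.15 and -0.0052. With the replicate block, 1535 probe sets and 4 member probe sets were called. VTC3 (adjusted p = 0.0517) and GIT1 (0.0583) were then not called by limma.

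Values of 3 uncalled regulators changed sign. PHO2 was at -0.0885 with K91A 3 counted as WT, -0.49 on the values as deposited, -0.18 with array weights, -0.0916 with the length trend removed, and between -0.17 and 0.15 with 1 array left out (below 0 without K91A 2, K91A 3 or WT 3). PHO85 was at -0.73 on the values as deposited, -0.0809 with median centring, -0.0526 with array weights, and between -0.0063 and 0.22 with 1 array left out (below 0 without K91A 2). PHO80, reported at 0.61, was at -0.0461 on the values as deposited. On that scale the median of all probe sets was -0.82.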

Other observations

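The genes next to the members on their chromosomes were looked up after the members' values were seen. Of 20 neighbouring protein-coding genes 15 were tested, and limma called 3 higher and 2 lower, a share near that of all probe sets (30.2%). TDA2, beside VTC1, was at -1.35 (adjusted p = 0.00331), and RPC17, an RNA polymerase III subunit beside VTC4, at -1.48 (adjusted p = 0.0049). PCA1, a cadmium transporter beside PHO89, was at 1.36 (adjusted p = 0.00394), YCR099C beside GIT1 at 1.29 and DIG2, a regulator of mating genes beside PHO8, at 1.35. PHO89, GIT1 and PHO84 are the 8th, 10th and 11th protein-coding genes from the nearer end of their chromosomes.

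Over the 6 arrays, the genes whose mean-centred log2 levels were most like those of PHO84, among 5155 genes, were RAS2 (a GTPase of nutrient signalling), XPT1 (a purine salvage enzyme) and RVB2 (a chromatin remodelling ATPase), with root mean square differences of 0.063, 0.067 and 0.071. Those most like VTC4, by its brightest probe set, were DNF2 (a lipid flippase), ERG27 (a sterol synthesis enzyme) and PMS1 (a DNA mismatch repair factor), at 0.058, 0.061 and 0.062. None of these 6 genes passed limma's test between the groups (adjusted p 0.172 to 0.519). They were picked on the same arrays for likeness to PHO84 and VTC4 probe set 11056_at, neither of which was called. That result therefore largely follows from the choice. The called VTC4 probe set 10838_at was not used in this search.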
